A study of Mus musculus with 15 samples.

Results

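The BAF (SWI/SNF) chromatin remodelling subunits described here are 10 genes, chosen by name: the core subunits Smarca4 and Smarcc1, the accessory subunit Smarcd3, the progenitor-type subunits Actl6a, Phf10 and Ss18, and the neuron-type subunits Actl6b, Dpf1, Dpf3 and Ss18l1. They were read from every probe set annotated to them, 22 of the 45037 tested, and make up 10 of the 18193 genes counted. The samples model small cell lung cancer, a neuroendocrine lung tumour, in the mouse, and were profiled on Affymetrix arrays covering the whole genome to ask how far the model resembles the human disease. The first tumour group held 10 lung tumours with both alleles of Rb and p53 deleted (Rb Δ/Δ and p53 Δ/Δ), dissected 8 to 12 months after the mice had received, through the nose, an adenovirus that expresses Cre recombinase. The second held 3 lung tumours that in addition to these deletions carried p130 Δ/Δ, taken 6 months after the same virus, so genotype and age of the tumour cannot be told apart. The reference was 2 lungs of wild-type, tumour-free adult mice, for which no age in months and no exposure to the virus is stated. The virus deletes alleles only in the cells it enters, and the labels name no promoter that restricts Cre, so a dissected tumour also holds cells of the host. Whether each array stands for its own mouse is not stated, so every p-value measures only the spread between these samples.

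BAF complexes use the energy of ATP to slide or evict nucleosomes, and are built from an ATPase around which alternative members of subunit families are assembled. In the developing nervous system dividing neural progenitors carry Actl6a, Phf10 and Ss18, and neurons that have left the cell cycle carry the related Actl6b, Dpf1, Dpf3 and Ss18l1 in their place. Small cell lung cancer is made of dividing cells that express many genes of neurons, so both sets could be looked for in these tumours. In neurons the change of Actl6a for Actl6b involves the repressor Rest and the microRNAs miR-124 and miR-9-3p, which pair with the Actl6a messenger RNA.

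Sequences just before the start site are shown for Actl6a and Smarcc1, whose levels moved together across tumours, and for the neuron-type Actl6b and Dpf1. Each is 250 bases of the gene's strand, 5′ to 3′, from RefSeq on build GRCm38.p6: Actl6a at chr3:32708296-32708545, Smarcc1 at chr9:110131774-110132023, Actl6b at chr5:137553296-137553545 and Dpf1 at chr7:29303755-29304004, all on the plus strand. Capitals mark the letters CCAAT on either strand (the CCAAT box).
Actl6a: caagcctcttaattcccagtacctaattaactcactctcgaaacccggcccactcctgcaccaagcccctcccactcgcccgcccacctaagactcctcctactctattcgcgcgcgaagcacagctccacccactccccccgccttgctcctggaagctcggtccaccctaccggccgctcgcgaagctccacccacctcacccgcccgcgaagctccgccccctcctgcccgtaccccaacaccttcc
Smarcc1: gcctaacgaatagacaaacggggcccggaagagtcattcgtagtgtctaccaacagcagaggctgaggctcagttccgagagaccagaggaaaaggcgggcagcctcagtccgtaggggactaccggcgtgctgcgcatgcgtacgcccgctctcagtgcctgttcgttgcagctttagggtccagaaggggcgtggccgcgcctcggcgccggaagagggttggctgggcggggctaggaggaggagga
Actl6b: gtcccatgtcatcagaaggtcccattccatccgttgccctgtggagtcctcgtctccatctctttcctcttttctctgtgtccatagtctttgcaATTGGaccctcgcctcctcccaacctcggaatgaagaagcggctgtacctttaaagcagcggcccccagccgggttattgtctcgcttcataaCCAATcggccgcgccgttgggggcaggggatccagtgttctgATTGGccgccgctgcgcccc
Dpf1: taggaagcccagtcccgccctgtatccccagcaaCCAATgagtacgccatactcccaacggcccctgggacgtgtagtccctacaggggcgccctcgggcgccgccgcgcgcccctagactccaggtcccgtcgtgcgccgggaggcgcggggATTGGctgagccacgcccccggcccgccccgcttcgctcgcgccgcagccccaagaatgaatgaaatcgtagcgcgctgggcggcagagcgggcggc
The stretches of 9 of the 10 listed genes and of Smarca2 were searched, and Ss18 was left out of the search. CCAAT was present in 3 of these 10 stretches, those of Actl6b, Dpf1 and Dpf3, and in 33.8% of the 32851 promoter stretches of this length. GGGCGG (the GC box) was present in 9 of the 10 and in 32.7% of all, and CAGCTG (an E-box) in Phf10 and Smarcd3 and in 13.0% of all. TTTCCCGC, TTTCGCGC, TTTGCCGC and TTTGGCGC, 4 spellings of the E2F motif, were in none of the 10 and in 1.86% of all. TTCAGCACC, the left part of the Rest motif, was in none of the 10 and in 0.301% of all, and its right part GGACAG also in none and in 18.7% of all. All motifs were searched on both strands, and CAGCTG reads the same on both. The mature miR-9-3p has its seed, bases 2 to 8, in capitals.
miR-9-3p: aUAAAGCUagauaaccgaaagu

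Neuroendocrine genes and genes of cell division were high in the tumours. Of 19 neuroendocrine and neuronal genes measured, 16 were called higher in Rb/p53 tumours than in normal lung, led by Scg2, Snap25 and Insm1, each at least 141-fold higher. All 19 genes of the G2/M phase of cell division were called higher as well, led by Ccnb2, which rose 41.8-fold. Markers of cells of the normal lung and of the heart fell: 7 of 9 alveolar type 2, 10 of 10 endothelial, 10 of 11 cardiac muscle, 7 of 11 smooth muscle and fibroblast, and 7 of 9 club and ciliated airway genes were called lower. Among 12 leukocyte markers 5 were called lower and 3 higher. In such bulk samples fewer cells of a type and less RNA per cell cannot be told apart. The targeted genes gave no check of the labels, since no source used here places their probe sets inside or outside the deleted exons: the brightest Rb1 probe set was 1.31 ± 0.27 (SE) higher in Rb/p53 tumours than in lung on the log2 scale, and that of Rbl2, the gene of p130, differed between tumour genotypes by -0.05 ± 0.23. RNA integrity differed between lung and tumour. The Gapdh control signal was higher at the 3′ than at the 5′ end by 0.72 and 0.88 in the lungs and by -0.07 to 0.36 in the tumours (log2), and the actin control difference was 1.33 and 1.99 in the lungs, 1.12 to 1.35 in Rb/p53 tumours 1 to 3, 0.50 to 0.71 in tumours 4 to 10 and 0.81 to 1.01 in Rb/p53/p130 tumours.

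Compared with normal lung, Rb/p53 tumours had higher levels of 3 of the 10 listed genes and lower levels of 0, by limma's adjusted p under 0.05, counting each gene through its brightest probe set. These were Smarca4, Smarcc1 and Actl6a. Across the array 18.3% of genes were called higher, 20.5% lower and 38.8% in either direction, so the share of listed genes called, 30.0%, was close to that of all genes. The tumours did not overlap the lungs in 4 of the 10 genes, lying above them in 3 and below them in 1 (Dpf3), beside 38.4% of all genes without overlap. The median change of the listed genes was 0.43 on the log2 scale, beside -0.02 for all genes. In Rb/p53/p130 tumours the same 3 genes were called higher and 0 lower, beside 15.3% called higher, 15.6% lower and 30.9% in either direction across the array. These 3 tumours lay above both lungs in 6 genes and below them in 1 (Smarcd3), beside 66.0% of all genes without overlap, and the median change was 0.45, beside -0.02. These 2 comparisons share the 2 normal lungs.

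Smarca4 encodes Brg1, an ATPase that drives the complex. Its level, as log2 expression of its brightest probe set, was 10.38 and 10.33 in the lungs, ran from 11.02 over a median of 11.38 to 11.78 in Rb/p53 tumours, and was 11.32, 11.23 and 11.30 in Rb/p53/p130 tumours. Every tumour lay above both lungs. The change was 1.05 ± 0.16 (SE; a 2.08-fold rise, adjusted p = 0.000108, higher in 10 of 10 tumours) in Rb/p53 tumours and 0.93 ± 0.18 (1.91-fold, adjusted p = 0.00166, 3 of 3) in Rb/p53/p130 tumours.

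Smarcc1 encodes a scaffold subunit on which the core of the complex is built. It stood at 9.68 and 9.34 in the lungs, at 10.81 to 11.88 with a median of 11.49 in Rb/p53 tumours, and at 11.11, 11.10 and 11.07 in Rb/p53/p130 tumours, again with no overlap between tumours and lungs. It had the largest called change of the 10 genes, 1.88 ± 0.23 (3.67-fold, adjusted p = 1.82e-05) in Rb/p53 tumours and 1.59 ± 0.27 (3.00-fold, adjusted p = 0.00052) in Rb/p53/p130 tumours.

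Smarcd3 encodes an accessory subunit known from heart and skeletal muscle and from neurons. It was 8.25 and 8.15 in the lungs, 6.03 to 8.74 with a median of 7.09 in Rb/p53 tumours, and 7.26, 7.45 and 7.89 in Rb/p53/p130 tumours. Of the Rb/p53 tumours 9 lay below both lungs and tumour 8 lay above them. The change of -1.07 ± 0.51 (95% interval -2.16 to 0.02, adjusted p = 0.129) in Rb/p53 tumours and of -0.67 ± 0.60 (adjusted p = 0.479) in Rb/p53/p130 tumours did not pass. Without tumour 8 the first change was -1.25 and passed (adjusted p = 0.0249). The lungs held a cardiac signal: 10 of 11 cardiac markers were called lower in Rb/p53 tumours, with a median change of -4.57, and the mean of the list was 10.22 and 10.36 in the lungs and 5.51 to 7.70 in those tumours. The part of that signal in the Smarcd3 level was not tested.

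**Figure D1:**
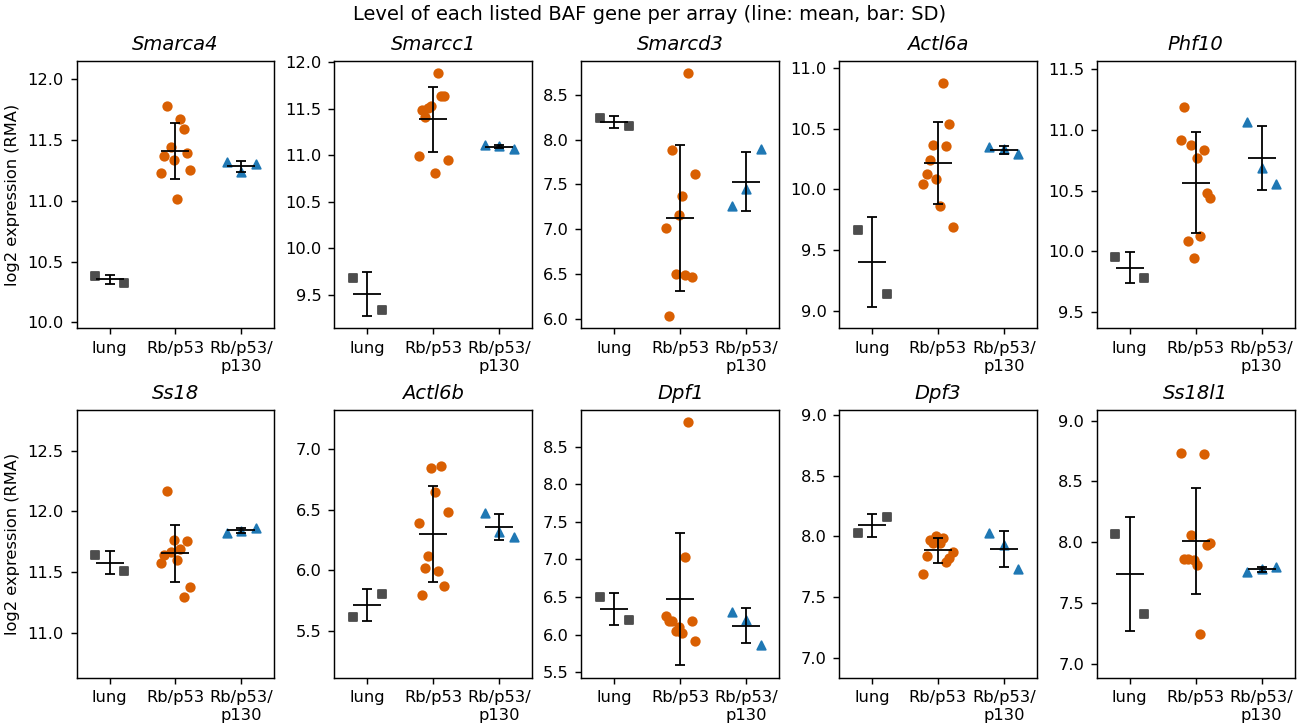
Level of each of the 10 listed genes on every array, as log2 expression (RMA) of the gene's brightest probe set. Squares are the 2 normal lungs, circles the 10 Rb/p53 tumours and triangles the 3 Rb/p53/p130 tumours, with lines for the mean and bars for the SD. In Smarca4, Smarcc1 and Actl6a every tumour sits above both lungs, and in Dpf1 1 tumour, at 8.82, stands away from the others.

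Of the 3 progenitor-type subunits, 1 was called higher in each tumour genotype, and all 3 had changes above 0. Across the array 18.3% of genes were called higher in the Rb/p53 comparison with lung and 15.3% in the Rb/p53/p130 comparison. Changes above 0 were found for 8698 and 8784 of the 18193 genes in these comparisons. Actl6a encodes an actin-related subunit that BAF complexes share with the INO80, SRCAP and TIP60 complexes. It was 9.67 and 9.14 in the lungs, 9.69 to 10.88 with a median of 10.18 in Rb/p53 tumours, and 10.35, 10.33 and 10.29 in Rb/p53/p130 tumours. The lowest tumour, number 10, lay just above the higher lung. The change was 0.81 ± 0.23 (1.76-fold, adjusted p = 0.0139, higher in 10 of 10) in Rb/p53 tumours and 0.92 ± 0.27 (1.89-fold, adjusted p = 0.0223, higher in 3 of 3) in Rb/p53/p130 tumours. Without normal lung 2, so that the lung left is assumed to vary like the other groups, the changes were 0.55 (adjusted p = 0.243) and 0.66 (adjusted p = 0.219), and the second call was also lost without Rb/p53/p130 tumour 11 (0.91, adjusted p = 0.0572) or 12 (0.92, adjusted p = 0.0543). With the actin 3′ to 5′ difference as a covariate neither call held (0.94, adjusted p = 0.0719, and 1.03, adjusted p = 0.0586).

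Phf10 encodes a PHD finger subunit of the PBAF form of the complex. Its levels were 9.96 and 9.78 in the lungs, 9.94 to 11.19 with a median of 10.62 in Rb/p53 tumours, and 11.07, 10.68 and 10.56 in Rb/p53/p130 tumours. Tumour 5, at 9.94, was the only tumour inside the range of the lungs. The changes of 0.70 ± 0.28 (adjusted p = 0.0668) and 0.90 ± 0.32 (adjusted p = 0.0557) missed the threshold. The first passed without Rb/p53 tumour 3 (0.75, adjusted p = 0.0443), 5 (0.77, adjusted p = 0.0314) or 7 (0.75, adjusted p = 0.0474). A second Phf10 probe set changed less, by 0.37 ± 0.43 (adjusted p = 0.57) in Rb/p53 tumours and 0.33 ± 0.51 (adjusted p = 0.712) in Rb/p53/p130 tumours. Ss18, best known as the partner of fusion genes in synovial sarcoma, was 11.64 and 11.51 in the lungs, 11.29 to 12.17 with a median of 11.65 in Rb/p53 tumours, and 11.82, 11.84 and 11.87 in Rb/p53/p130 tumours. Its changes were 0.08 ± 0.16 (95% interval -0.27 to 0.42, adjusted p = 0.773) and 0.26 ± 0.19 (-0.14 to 0.67, adjusted p = 0.361).

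None of the 4 neuron-type subunits was called in either comparison with normal lung, by limma at an adjusted p of 0.05. Of all genes 38.8% were called in the Rb/p53 comparison and 30.9% in the Rb/p53/p130 comparison. A list of 4 genes is too short for an absence of calls to set it apart from genes in general. At an unadjusted p under 0.05 the brightest probe set of Actl6b, alone of the 4, passed in each comparison, beside 47.2% and 41.5% of all genes. Actl6b encodes the actin-related subunit that takes the place of Actl6a in neurons. It was 5.62 and 5.80 in the lungs, 5.80 to 6.86 with a median of 6.25 in Rb/p53 tumours, and 6.47, 6.32 and 6.27 in Rb/p53/p130 tumours. Tumour 2, at 5.80, fell just below the higher lung, and the other 12 tumours lay above both. Its changes were 0.59 ± 0.25 (1.50-fold, 95% interval 0.05 to 1.13, adjusted p = 0.0935) and 0.64 ± 0.30 (1.56-fold, adjusted p = 0.14). With array weights both passed (adjusted p = 0.0495 and 0.0439), and with the Gapdh 3′ to 5′ difference as a covariate both turned negative (-0.29 in each genotype). The interval of its change in Rb/p53 tumours overlapped that of Actl6a, 0.32 to 1.31, and the difference between the 2 changes was not tested.

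Dpf1 and Dpf3 encode the PHD finger subunits of the neuronal form, related to Phf10. Dpf1 was 6.49 and 6.19 in the lungs, 5.91 to 8.82 with a median of 6.18 in Rb/p53 tumours, and 6.30, 6.19 and 5.86 in Rb/p53/p130 tumours. Tumour 8 had 8.82 and tumour 7 had 7.03, and the other 8 Rb/p53 tumours were at or below 6.24, inside or below the range of the lungs. Its changes were 0.13 ± 0.55 (95% interval -1.04 to 1.30, adjusted p = 0.891) and -0.23 ± 0.65 (adjusted p = 0.854). Dpf3 was 8.03 and 8.16 in the lungs, 7.69 to 8.00 with a median of 7.91 in Rb/p53 tumours, and 8.03, 7.93 and 7.73 in Rb/p53/p130 tumours. All 10 Rb/p53 tumours lay below both lungs, but the change was small, -0.21 ± 0.11 (adjusted p = 0.154), and -0.20 ± 0.12 (adjusted p = 0.286) in Rb/p53/p130 tumours. Dpf3 is also expressed in heart muscle, whose markers were far lower in the tumours, and the part of that signal was not tested.

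Ss18l1, also called Crest, encodes a calcium-responsive coactivator that replaces Ss18 in neurons. It was 8.07 and 7.41 in the lungs, 7.24 to 8.73 with a median of 7.92 in Rb/p53 tumours, and 7.75, 7.78 and 7.79 in Rb/p53/p130 tumours. Tumours 1 and 8, at 8.73 and 8.72, stood above the rest, and tumour 7 was the lowest. The lungs themselves differed by more than the change of 0.27 ± 0.29 (adjusted p = 0.53) in Rb/p53 tumours and of 0.04 ± 0.34 (95% interval -0.70 to 0.77, adjusted p = 0.958) in Rb/p53/p130 tumours.

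Counted over all 22 probe sets, 9 were called higher and 0 lower in Rb/p53 tumours (across the array 16.0% were called higher), and 8 higher and 0 lower in Rb/p53/p130 tumours (12.3% across the array). The 9 were both probe sets of Smarca4, all 4 of Smarcc1 and all 3 of Actl6a, so the probe sets of these genes agreed in direction. They did not agree in size: the second Smarca4 probe set changed by 2.06 ± 0.18 where the brightest changed by 1.05, and those of Smarcc1 changed by 0.70 to 2.73. In Rb/p53/p130 tumours the 8 were 2 of Smarca4, 3 of Smarcc1, 2 of Actl6a and 1 of Ss18. That Ss18 probe set, which is not the brightest, changed by 0.85 ± 0.28 (adjusted p = 0.0338), so the probe sets of Ss18 disagreed. The third Actl6a probe set changed by 0.65 ± 0.23 (adjusted p = 0.0381) in Rb/p53 tumours and by 0.37 ± 0.27 (adjusted p = 0.362) in Rb/p53/p130 tumours. None of the 7 probe sets of the neuron-type subunits was called in either comparison, and 2 of them, 1 of Actl6b and 1 of Ss18l1, had an unadjusted p under 0.05 in Rb/p53 tumours, beside 40.8% of all probe sets. The Ss18l1 probe set changed by -0.27 ± 0.12, opposite to the brightest one of that gene (0.27 ± 0.29), so the probe sets of Ss18l1 disagreed. With the Gapdh 3′ to 5′ difference as a covariate, which itself does not overlap between lung and tumour, Smarca4 was called in Rb/p53 tumours, alone of the 10 genes, while Rb/p53/p130 tumours gave 0 calls. The change of Smarcc1 was then 1.79 (adjusted p = 0.0979) and that of Actl6a 0.95 (adjusted p = 0.409) in Rb/p53 tumours.

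**Figure D2:**
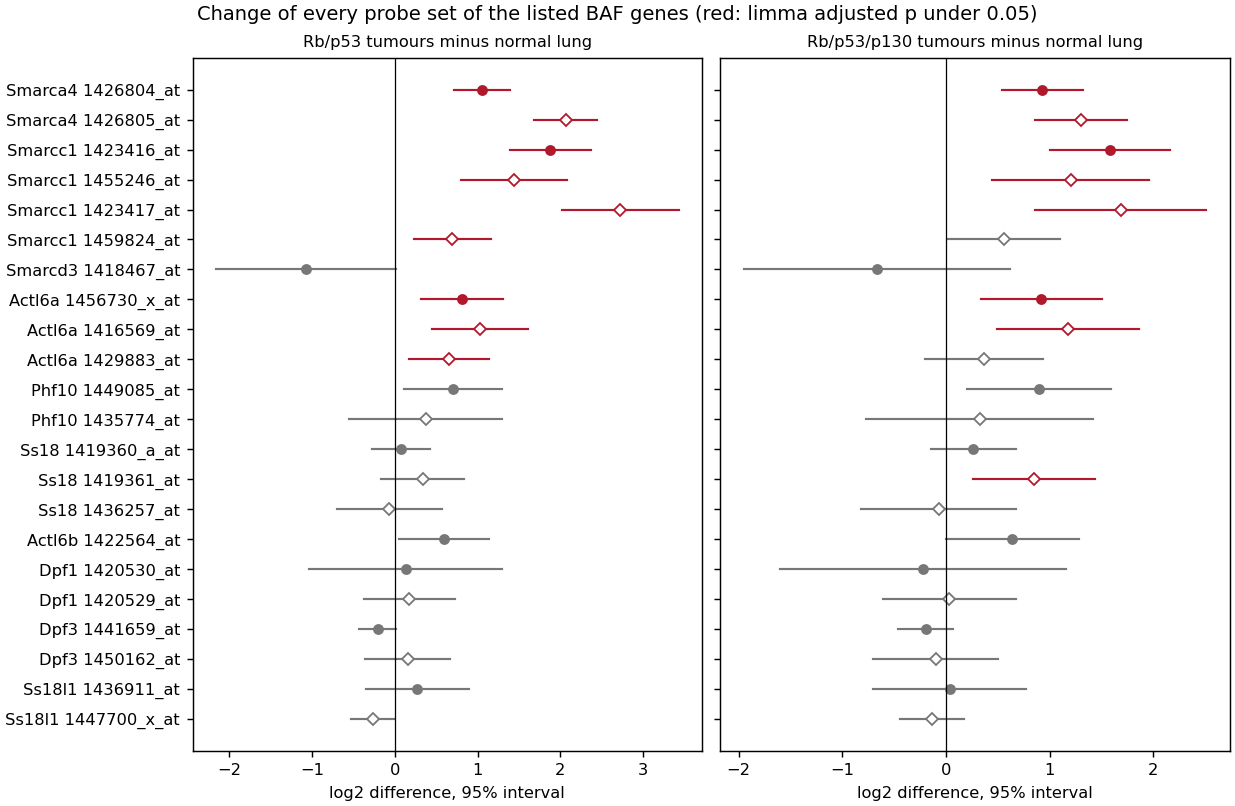
Change of each of the 22 probe sets against normal lung (x axis, log2 difference with its 95% interval), for Rb/p53 tumours on the left and Rb/p53/p130 tumours on the right. Filled circles are the probe set a gene was counted through, open diamonds the others, and red marks an adjusted p under 0.05. All probe sets of Smarca4, Smarcc1 and Actl6a lie to the right of 0, the Actl6b interval also lies to the right of 0 without passing, and the intervals of Dpf1, Dpf3 and the brightest Ss18l1 probe set include 0.

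Between tumour genotypes none of the 10 genes was called by limma, beside 0.0715% of all genes (13 genes), and 0 of the 22 probe sets, beside 0.211%. At an unadjusted p under 0.05 none of the 10 genes passed, beside 7.26% of all genes. Their changes from Rb/p53 to Rb/p53/p130 tumours ran from -0.35 for Dpf1 to 0.40 for Smarcd3, with a median of 0.03. The narrowest interval was that of Dpf3, -0.18 to 0.20, and the widest that of Dpf1, -1.35 to 0.64. By the brightest probe sets, only the intervals of Dpf1 and Smarcd3 (-0.52 to 1.33) held differences of more than a log2 unit. Of the 22 probe sets 3 had an unadjusted p under 0.05, beside 10.1% of all probe sets, and on 2 the genotypes did not overlap, beside 3.13%. Those 2 were a Smarca4 probe set, at 9.88, 9.85 and 9.71 in Rb/p53/p130 tumours against 10.12 to 11.01 in Rb/p53 tumours (change -0.76 ± 0.15, adjusted p = 0.0576), and a Smarcc1 probe set, at 8.50, 8.39 and 8.29 against 8.72 to 10.31 (-1.04 ± 0.28, adjusted p = 0.16). The brighter probe sets of the same genes overlapped between genotypes, with changes of -0.12 ± 0.13 and -0.29 ± 0.20. The Ss18 probe set that was called against lung was the third, higher by 0.52 ± 0.20 in Rb/p53/p130 tumours (adjusted p = 0.372).

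The other 21 SWI/SNF subunits measured were called about as often as genes in general. In Rb/p53 tumours 5 were called higher and 3 lower (38.1%, beside 38.8% of all genes), and in Rb/p53/p130 tumours 5 higher and 2 lower (33.3%, beside 30.9%), with median changes of 0.12 and 0.10. Bcl7a, a subunit that binds the ATPase module, rose by 1.46 ± 0.36 (2.75-fold, adjusted p = 0.0059), and Smarce1, an HMG-box subunit of the core, by 1.09 ± 0.22 (2.12-fold, adjusted p = 0.00166). The remaining called genes fall outside the naming rule and were chosen after their values were seen: Smarcb1, a core subunit, rose by 0.94 ± 0.18, and the DNA-binding subunits Arid1a and Arid2 by 0.91 ± 0.26 and 0.90 ± 0.18, while Bicra fell by 0.85 ± 0.20 and Arid1b fell by 0.53 ± 0.17. Arid1b was not called in Rb/p53/p130 tumours, where its change was 0.05 ± 0.20. Without normal lung 1 the 8 called genes became 4 in Rb/p53 tumours, and the 7 became 1 in Rb/p53/p130 tumours. In the latter they became 4 without normal lung 2, and 3 and 4 without tumours 11 and 13. With the Gapdh covariate 0 of the 21 were called in either comparison, and the change of Smarca2 in Rb/p53 tumours was -2.04 (adjusted p = 0.392) and that of Rest -1.85 (adjusted p = 0.272).

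Smarca2, the alternative ATPase to Smarca4, went the other way. It was 10.97 and 11.32 in the lungs, 6.53 to 9.19 with a median of 8.30 in Rb/p53 tumours, and 7.85, 8.34 and 8.97 in Rb/p53/p130 tumours, so all 13 tumours lay below both lungs. In Rb/p53 tumours it changed by -2.92 ± 0.49 (7.59-fold lower, adjusted p = 0.000332) and in Rb/p53/p130 tumours by -2.76 ± 0.58 (6.78-fold lower, adjusted p = 0.00264). A second Smarca2 probe set changed by -1.33 ± 0.42 (adjusted p = 0.0257) and -2.25 ± 0.50 (adjusted p = 0.00375). Endothelial markers, all 10 of which fell with a median change of -3.27, and smooth muscle and fibroblast markers, 7 of 11 of which fell with a median of -1.98, moved in the same direction, and their part in the Smarca2 level was not tested. The relatives of the other listed core genes were not called: Smarcc2 changed by -0.04 ± 0.24, Smarcd1 by 0.56 ± 0.29, Smarcd2 by -0.40 ± 0.28 and Dpf2, the widely expressed relative of Dpf1 and Dpf3, by -0.16 ± 0.14 in Rb/p53 tumours. In tumour 8 Smarcc2 and Smarcd1 were also at their highest, 10.15 and 8.21.

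**Figure D3:**
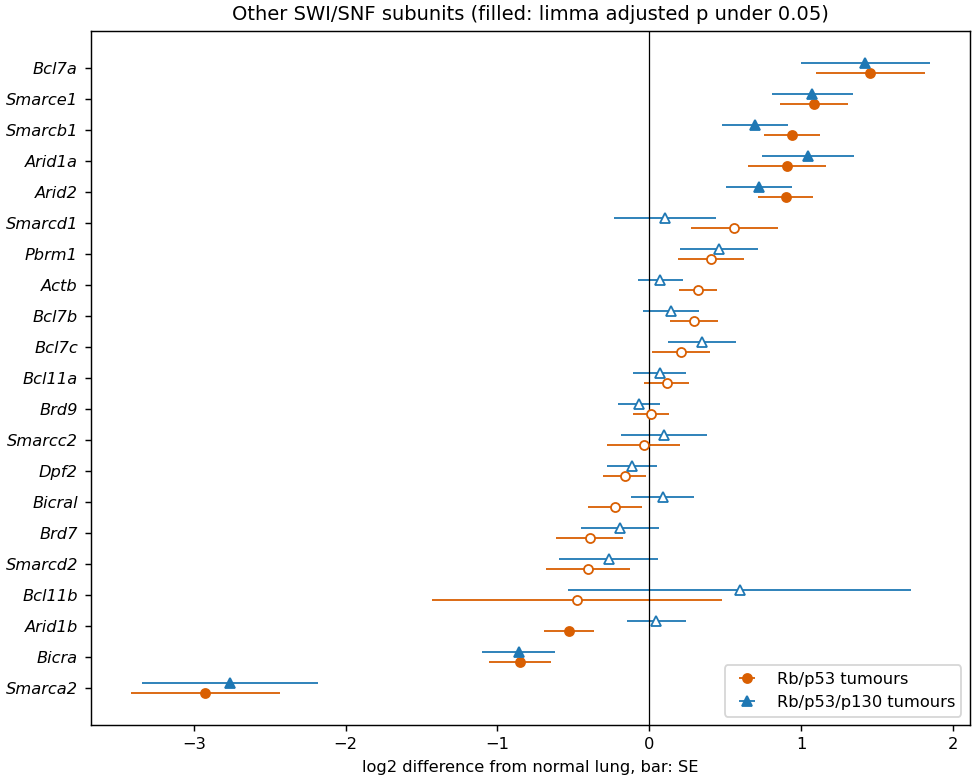
Change of the other 21 SWI/SNF subunits against normal lung (x axis, log2 difference; bars are the SE), with circles for Rb/p53 tumours and triangles for Rb/p53/p130 tumours, filled where the adjusted p was under 0.05. Smarca2, at -2.92 and -2.76, lies far to the left of the rest, and Bcl7a, at 1.46 and 1.42, is the rightmost.

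Actl6a is shared with other remodellers, so its partners there were read too. Of 19 subunits of the INO80, SRCAP and TIP60 complexes 3 were called higher and 0 lower in Rb/p53 tumours: Mbtd1 (0.83 ± 0.27), Ing3 (0.80 ± 0.14) and Dmap1 (0.59 ± 0.17), all known from TIP60. Of 23 genes of the ISWI, CHD and NuRD remodellers 10 were called higher and 1 lower. The largest were Smarca1, an ISWI ATPase, which rose by 3.05 ± 0.50 (8.26-fold, adjusted p = 0.000271), the NuRD subunit Mbd3 (1.80 ± 0.24) and Chd5, a CHD remodeller of neurons (1.72 ± 0.30). Of all genes 18.3% were called higher.

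Rest and the other genes listed here as switch regulators were read in the same way. Of 6, 3 were called higher and 1 lower in Rb/p53 tumours, beside 18.3% of all genes called higher and 20.5% lower. Rest, the repressor of neuronal genes, was 8.81 and 9.13 in the lungs, 6.40 to 8.04 with a median of 7.05 in Rb/p53 tumours, and 6.89, 6.99 and 7.46 in Rb/p53/p130 tumours, below both lungs in all 13. It changed by -1.78 ± 0.35 (3.44-fold lower, adjusted p = 0.00112) and -1.86 ± 0.41 (3.62-fold lower, adjusted p = 0.00379). Its corepressor Rcor2 rose by 1.50 ± 0.43 (adjusted p = 0.0145), the splicing repressor Ptbp3 by 1.01 ± 0.21 (adjusted p = 0.00158) and the corepressor Rcor1, outside the naming rule and chosen after its value was seen, by 0.73 ± 0.25 (adjusted p = 0.0373). The microRNAs themselves were not measured. Probe sets of 4 of their host transcripts, 7 in all, were low on every array, from 3.32 to 6.10, and none was called in any of the 3 comparisons. Mir124a-1hg, a host of miR-124, reached its highest level, 6.10, in tumour 8, beside a median of 5.43 in Rb/p53 tumours and 5.38 and 5.54 in the lungs. A probe set of C130071C03Rik was also highest in tumour 8, at 4.89 beside a median of 3.82. The other probe sets were highest in other Rb/p53 tumours, and Mir124-2hg, also a host of miR-124, was 3.88 in tumour 8, beside a median of 3.88.

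Across the 10 Rb/p53 tumours Actl6a followed the genes of cell division. Its level rose with the mean of the 19 G2/M genes (Pearson r = 0.89, permutation p = 0.00042; Spearman rho = 0.89, permutation p = 0.00107), with an adjusted p of 0.0084 over the 20 correlations computed, 10 genes against 2 lists. No other correlation of the 20 passed by Pearson's r. Without the 2 tumours farthest from the median of the G2/M mean r was 0.78 (exact permutation test, adjusted p = 0.357, n = 8). Without tumour 7, the highest in both, it was 0.82 (exact permutation test, adjusted p = 0.086, n = 9). The call was lost in both settings, which also held fewer tumours, and why was not tested. Within tumours 4 to 10, which shared a low actin 3′ to 5′ difference, r was 0.96 (exact permutation test, adjusted p = 0.00992, n = 7), and the 3 tumours left are too few for a value. Averaged over its 3 probe sets Actl6a gave r = 0.82 (permutation test, adjusted p = 0.0632).

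Smarcc1 had r = 0.76 with the G2/M mean (permutation test, adjusted p = 0.0897) and rho = 0.84 (adjusted p = 0.0368), and the neuron-type Actl6b r = -0.43 (adjusted p = 0.384). Against the mean of the 19 neuroendocrine and neuronal genes the highest values were those of Smarcd3 and Dpf1, and neither passed. Smarcd3 had r = 0.81 (permutation test, adjusted p = 0.0555) and rho = 0.54, and Dpf1 r = 0.79 (adjusted p = 0.268) and rho = 0.16. Without tumour 8 their r was 0.58 and -0.27. The lowest value was that of Ss18, r = -0.62 (permutation test, adjusted p = 0.268) and rho = -0.73, which did not pass. Its r was -0.89 within tumours 4 to 10 (exact permutation test, adjusted p = 0.0327, n = 7). Without the 2 tumours farthest from the median of that mean it was 0.05 (n = 8). Among the 45 pairs of listed genes 1 passed by Pearson's r, Smarcc1 with Actl6a (r = 0.88, permutation test, adjusted p = 0.0216; rho = 0.88, adjusted p = 0.0715), with r = 0.80 without the 2 extreme tumours and 0.91 within tumours 4 to 10.

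**Figure D4:**
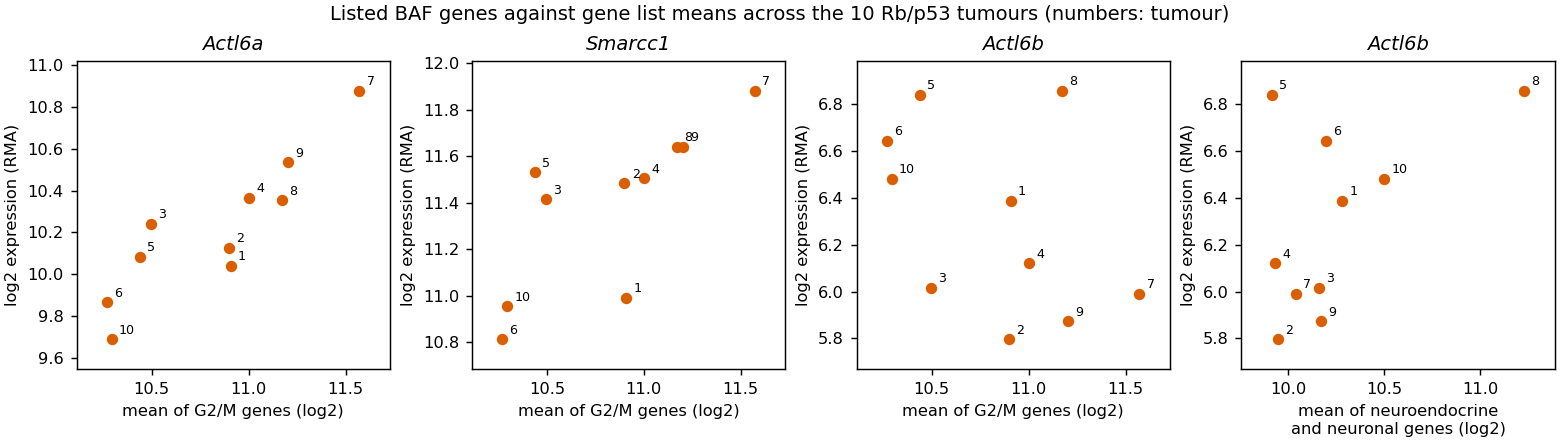
Level of Actl6a, Smarcc1 and Actl6b (y axes, log2 expression) against the mean level of the G2/M genes, and of Actl6b against that of the neuroendocrine and neuronal genes (x axes, log2), across the 10 Rb/p53 tumours, each labelled with its number. Actl6a climbs with the G2/M mean from tumours 6 and 10 to tumour 7 (r = 0.89), while Actl6b does not (r = -0.43), and tumour 8 stands alone at the right of the last panel.

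Tumour 8 stood apart from the other Rb/p53 tumours in Dpf1 (8.82, beside 7.03 in the next), alone of the 4 neuron-type genes. Its Actl6b (6.86) was the highest but close to that of tumour 5 (6.84), and its Ss18l1 (8.72) was next to that of tumour 1 (8.73). Of the other listed genes it had the highest Smarcd3 (8.74) and the lowest Ss18 (11.29). It also had the highest mean of the neuroendocrine and neuronal genes, 11.23, where the other Rb/p53 tumours lay between 9.91 and 10.50. Dpf3, the remaining neuron-type gene, was next to lowest there. The second Dpf1 probe set was likewise highest in tumour 8, at 6.30 beside a median of 5.26. The 20 nearest measured genes around Dpf1 on chromosome 7 deviated in tumour 8 from their group means by 0.05 on average, where Dpf1 deviated by 2.35.

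Genes whose pattern was most like each subunit were found by Pearson's r over the 13 tumours, after subtracting the mean of each genotype, as a description only. The search took only genes whose mean over the 13 tumours was above that of the median gene. For Actl6a they were Pus7 (r = 0.96), the splicing factor Srsf1 (0.96) and Adgrl1 (0.95), for Phf10 Atf5 (0.90), Trib3 (0.89) and Nptx2 (0.88), and for Ss18 Pak2 (0.85), Shtn1 (0.81) and Slc35e1 (0.80). For the neuron-type subunits they were Tanc2 (0.88), Zfp251 (0.87) and Gadd45gip1 (0.87) with Actl6b, E2f1 (0.93), Mllt11 (0.91) and Ap1s2 (0.91) with Dpf1, Serhl (0.85), Uqcrq (0.83) and Epn1 (0.82) with Dpf3, and Ift52 (0.95), Tshz2 (0.94) and Arfgap1 (0.93) with Ss18l1. Dpf1 deviated from its mean over Rb/p53 tumours by 2.35 in tumour 8, and next by 0.56 and -0.56 in tumours 7 and 10. Its r values without tumour 8 were not computed. The 13 arrays share 1 normalisation.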

How the data were processed

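Total RNA was isolated with Trizol and amplified with a RiboAmp kit over repeated rounds, per the labels' protocols. The authors deposited a log2 expression value for each probe set on each array, made with RMA, per the submitters' processing notes (no version stated). They ran from 3.11 to 15.2, with array medians of 6.58 to 6.68. Because RMA brings the arrays to nearly 1 distribution, it hides shifts common to most genes, and repeated amplification favours the 3′ ends of RNA, so probe sets far from that end can be affected. The number of arrays, 2 for normal lung, limits the precision.

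Of 45101 probe sets 64 controls were left out. The brightest probe set of a gene, by its mean over all 15 arrays, stood for the gene. Of 34945 probe sets with 1 gene symbol, 34741 were matched to RefSeq (GRCm38.p6) by gene ID. limma 3.58.1 (R 4.3.3; lmFit, eBayes) was fitted to all 3 groups together, with Benjamini-Hochberg adjustment over 45037 probe sets and calls at 0.05. Errors of changes are SE. The fit was tested on simulated data. A fold is a lower bound where the lower group mean was no higher than 5.05, the top value among the arrays' lower quartiles. Correlations used 100000 permutations, or all of them where n was under 10.

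The members and gene lists were chosen with earlier results of these data known. The rule for names took the 10 listed genes, up to 3 called genes of each list with the largest change in Rb/p53 tumours, the 3 genes most like each progenitor-type or neuron-type subunit, and the targeted genes; only some of the marker genes are named. Some entries of the gene lists were not analysed here. Alternatives left out each array, changed the normalisation, filter, probe set choice and model, and added RNA integrity covariates.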

Additional observations from a re-analysis of the deposited data

Results flagged for a closer look

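Dpf1 in Rb/p53 tumour 8, at 8.82 on the log2 scale, lay far from the other 9 tumours of its group, the next of which was at 7.03, and the gap took up 61.4% of the group's range. The 10 listed genes were each tested for such a sample in the Rb/p53 group, and chance alone flags about 1 group in 20.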

How the results depend on the processing

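Over the alternatives other than leaving out 1 array at a time, among them the splits of the tumours and the replicate block, the changes of the 10 genes, Smarca2 and Rest kept their direction and side of the threshold in 138 of 154 values for Rb/p53 tumours against lung, in 102 of 118 for Rb/p53/p130 tumours and in 133 of 142 between genotypes. The count of listed genes called in Rb/p53 tumours (3) became 5 with array weights and 1 with the Gapdh covariate, and 2 to 4 when arrays were left out one at a time. In Rb/p53/p130 tumours (3) it became 6 with the compared groups alone, 5 with array weights, 0 with the Gapdh covariate, and 2 to 3 on leaving out arrays. Genes called across the array fell to 1106 and 940 with the Gapdh covariate, and in Rb/p53 tumours to 4472 with the actin covariate; leaving out arrays gave 4604 to 7194 and 3650 to 4862, lowest without normal lung 1 in both. Between genotypes (13) they became 662 with array weights, 0 with averaged probe sets, 60 with tumours 4 to 10 and 2 with tumours 1 to 3, and 3 to 21 on leaving out arrays (21 without tumour 1, 3 without any of tumours 11, 12 or 13). The count of correlations (1) became 2 by Spearman's rho, 0 without the 2 extreme tumours, 0 with averaged probe sets, 0 with list medians and 4 in tumours 4 to 10, and 0 to 4 on leaving out tumours (0 without tumour 7, 4 without tumour 3 or 5, 3 without tumour 1, 2 without tumour 9). The actin covariate and the splits of the tumours were chosen after seeing the data. Why these counts moved was not tested.

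Direction reversed against lung with the Gapdh covariate for Actl6b (-0.29 in both genotypes) and Dpf1 (-1.17 in Rb/p53 tumours), and for Dpf1 with the actin covariate (-0.20) and tumours 1 to 3 (-0.14). Ss18l1 in Rb/p53/p130 tumours reversed with repeated quantile normalisation (-0.012) and averaged probe sets (-0.048). Between genotypes Smarca2 reversed with array weights (-0.022), averaged probe sets (-0.38), no suffixed probe sets (-0.92) and tumours 1 to 3 (-0.025). With averaged probe sets Actl6a (-0.0084), Dpf3 (-0.12) and Rest (0.19) reversed too, and with tumours 4 to 10 Actl6b (-0.047) and Dpf3 (-0.012). Leaving out arrays took Dpf1 from -0.13 to 0.28 and Ss18l1 from -0.058 to 0.60 in Rb/p53 tumours, Ss18l1 from -0.29 to 0.37 in Rb/p53/p130 tumours and, between genotypes, Actl6b from -0.0063 to 0.12, Dpf3 from -0.054 to 0.093, Smarca2 from -0.13 to 0.43 and Rest from -0.25 to 0.034. None of these changes was called with all arrays. Actl6b and Phf10 were called with array weights and with Rb/p53/p130 tumours and lungs alone. In the latter setting Smarcd3 was called too (-0.67, limma adjusted p = 0.0463). Smarca2 and Rest were not called with the Gapdh covariate.

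Tumours 1 and 2 share their numbers with normal lungs 1 and 2, and the labels do not say whether equal numbers mark a pair. Deviations of same-numbered samples correlated at -0.004 and -0.055. The deviations of 2 lungs from their mean mirror each other, so these values cannot tell whether a pairing exists. With the replicate block, on the 4 arrays of tumours 1 and 2 and lungs 1 and 2, 3891 genes were called, and Dpf1 reversed (-0.13). Smarca4 (0.94, adjusted p = 0.0554) and Actl6a (0.68, adjusted p = 0.165) were then not called, and Smarcd3 (-1.68, adjusted p = 0.0281) and Phf10 (1.19, adjusted p = 0.0385) were.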

Other observations

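Across Rb/p53 tumours Ss18l1 had r = 0.72 with the mean of its 20 nearest measured genes on chromosome 2, as a description only. For the other listed genes r with their own neighbours ran from -0.71 (Dpf3) to 0.59 (Actl6b). The genes around Ss18l1 deviated from their means over Rb/p53 tumours by 0.49 in tumour 1 and 0.23 in tumour 8, the pair highest in Ss18l1. They deviated by 0.26 in tumour 3 and -0.19 in tumour 7, where Ss18l1 itself deviated by -0.15 and -0.77. The 3 genes most like Ss18l1 (Ift52, Tshz2 and Arfgap1) also lie on chromosome 2.

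The core subunits had close companions too, chosen after their values were seen. In the same search over the 13 tumours the genes most like Smarca4 were Smarcb1, another core subunit of the complex (r = 0.97), Mex3d (0.94) and Sf3a2 (0.91). Smarcb1, Mex3d and Sf3a2 all lie on chromosome 10, and Smarca4 lies on chromosome 9. The part of a shared chromosome in this pattern was not tested. Those most like Smarcc1 were Lmnb1 (0.96), Ung (0.96) and Dnmt1 (0.95), a lamin and a pair of enzymes that act on DNA.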
